A study of Homo sapiens with 2 samples.

Results

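The 6 deposited rows for forms of the mouse long non-coding RNA Mhrt were examined together with the rows of the human cardiac myosin heavy chain genes MYH6 and MYH7. These 8 rows were taken by name from a table of 23608 gene rows, and all 8 passed the filter on low values. The cells were of the established human line SW13, labelled as adrenal adenocarcinoma cells and grown in medium with 10% serum. At 80% confluence, 10000000 cells received plasmids for the murine RNAs Mhrt779 and Hotair (5 µg, Lipofectamine), and the cells were harvested 48 hours later. One library was made from total RNA (the RNA sequencing of the labels) and 1 from RNA fragments recovered with ribosomes (ribosome profiling), each read as 50 nt pairs. Both libraries therefore come from cells that carried both plasmids, and no library of cells without them was used here. With a single library per assay, the values carry no error between replicates.

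Mhrt is transcribed in the mouse heart from the strand opposite to Myh7, and its several forms arise by alternative splicing of one primary transcript. It is known to bind the chromatin remodeller Brg1 and to be repressed in the stressed heart. MYH6 and MYH7 encode the alpha and beta heavy chains of the motor protein of the cardiac sarcomere and lie beside each other on human chromosome 14. Ribosome profiling reads the RNA fragments that ribosomes shield from nuclease, so an mRNA in translation is recovered in it, whereas an RNA without translating ribosomes should be depleted relative to total RNA.

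The levels are FPKM, fragments scaled by transcript length and by library size, as the authors deposited them. Over the whole table they summed to 1846987 in total RNA and to 6457389 in ribosome profiling, with an unknown read depth. The log2 ratio used below is that of ribosome profiling over total RNA FPKM, each plus 1, minus the median of the 2734 tested genes, which had a mean FPKM of at least 10. As deposited, that median gene was higher in ribosome profiling by 1.31-fold.

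MYH6 and MYH7 share long stretches of sequence, which bears on how their reads could be placed. In the GENCODE release 29 transcripts, the coding sequences of MYH6-202 and MYH7-201, of 5817 and 5805 bases, were identical at 90.8% of aligned positions. Of the 6038 pieces of 50 bases in the MYH7 transcript, 14.5% also occurred without a mismatch in MYH6, and of its 6058 pieces of 30 bases, 24.5% did. The longest identical run had 395 bases. It spans exons 25 to 27 of MYH6-202 and exons 26 to 28 of MYH7-201, all within the coding sequence. Its first 120 bases and the 25 bases before it are shown, 5′ to 3′ in the sense strand, because a 50-base read from inside the run matches both genes, unless its mate lies outside the run. Capitals mark the 8 positions at which the transcripts differ.
MYH6-202, bases 3386 to 3530: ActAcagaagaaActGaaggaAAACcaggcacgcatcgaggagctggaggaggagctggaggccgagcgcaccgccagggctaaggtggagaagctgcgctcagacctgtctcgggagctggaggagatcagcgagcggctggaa
MYH7-201, bases 3472 to 3616: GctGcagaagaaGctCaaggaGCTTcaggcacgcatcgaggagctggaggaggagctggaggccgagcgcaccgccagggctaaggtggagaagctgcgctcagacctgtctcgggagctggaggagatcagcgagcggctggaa
Coding transcripts of 14 family genes were compared, without MYH16. Apart from MYH6, none of them shared a 50-base piece with MYH7, and MYH3 shared 1 with MYH6. The Mhrt sequences themselves were not used here.

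All 6 Mhrt forms were higher in total RNA than all but a few protein-coding rows and were several-fold lower in ribosome profiling. In bulk RNA, the number of cells that carried the plasmid and the RNA per cell cannot be told apart. Mhrt779, the form on the transfected plasmid, had 1851 FPKM in total RNA and 210.5 FPKM in ribosome profiling. Mhrt709, the form with the shortest listed sequence, had the highest level of the 6 in both libraries, with 1914 and 297 FPKM. Mhrt1147, the form with the longest, had the lowest level in both, with 914 and 136 FPKM. The other forms lay between them in each library. Mhrt826 had 1669 FPKM in total RNA and 192 FPKM in ribosome profiling. Mhrt857 had 1493 and 233 FPKM in the same order. Mhrt828(AK052874), named after a database transcript, had 1420 and 235 FPKM. Each form was thus lower in ribosome profiling.

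**Figure D1:**
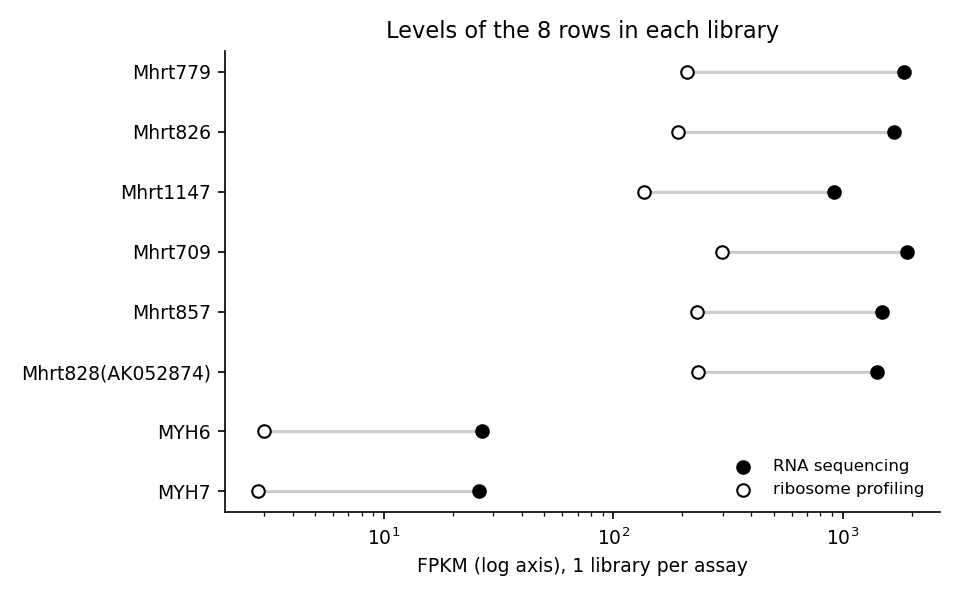
FPKM on a log axis for the 6 Mhrt rows, MYH6 and MYH7, with a filled point for the RNA sequencing library and an open point for the ribosome profiling library. In each row the open point lies to the left, and the Mhrt rows lie between 914 and 1914 FPKM in total RNA and between 136 and 297 FPKM in ribosome profiling.

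The labels name only Mhrt779 as transfected, yet each of the other 5 forms was listed at 49.4% to 103% of the Mhrt779 level in total RNA. Each form lies on a sequence of its own, whose listed end was within 2 bases of the number in its name. The FPKM of the 6 forms differed by 2.09-fold from the lowest to the highest in total RNA. Multiplying each FPKM by the listed length narrowed this to 1.38-fold, from 1047 to 1444 (FPKM times length in kilobases). In ribosome profiling the same step narrowed a 2.18-fold range to 1.35-fold, from 156 to 211 on the same scale. The forms thus differed less in fragments per sequence than in FPKM, in both libraries. How many reads matched several forms was not tested, and the 6 rows cannot be counted as 6 independent measurements.

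The share of each row in the summed Mhrt FPKM was next compared between the libraries. Mhrt779 made up 19.99% of the summed Mhrt FPKM in total RNA and 16.1% in ribosome profiling. Mhrt826 made up 18.02% and 14.7%. Mhrt828(AK052874) went from 15.3% to 18.05%, Mhrt709 from 20.7% to 22.8%, Mhrt857 from 16.1% to 17.9% and Mhrt1147 from 9.87% to 10.5%. Mhrt779 and Mhrt826 were therefore the 2 rows whose share was smaller in ribosome profiling. These are shares of listed FPKM, and whether any form other than Mhrt779 was present in the cells was not tested.

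Set against the median gene, the 6 Mhrt rows had log2 ratios between -3.52 and -2.98. Mhrt779 and Mhrt826 stood lowest, at -3.52 and -3.50. Mhrt1147, Mhrt709, Mhrt857 and Mhrt828(AK052874) followed at -3.12, -3.07, -3.06 and -2.98. The FPKM listed for the 6 Mhrt rows summed to 9261 in total RNA and 1304 in ribosome profiling. The latter is 14.1% of the former, and the ratio of the sums lay 9.29-fold below the median gene. How many reads were counted in several of the rows was not tested. All 8 rows lay at least 4-fold below the median gene, as did 9.80% of the 2734 tested genes and 3.93% of the 2238 tested protein-coding genes. MYH6 and MYH7 passed the filter through their total RNA level, so their place among the 8 is given as a description. At the lower bar of 2-fold below, the shares were 19.7% of tested genes and 14.4% of tested protein-coding genes.

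**Figure D2:**
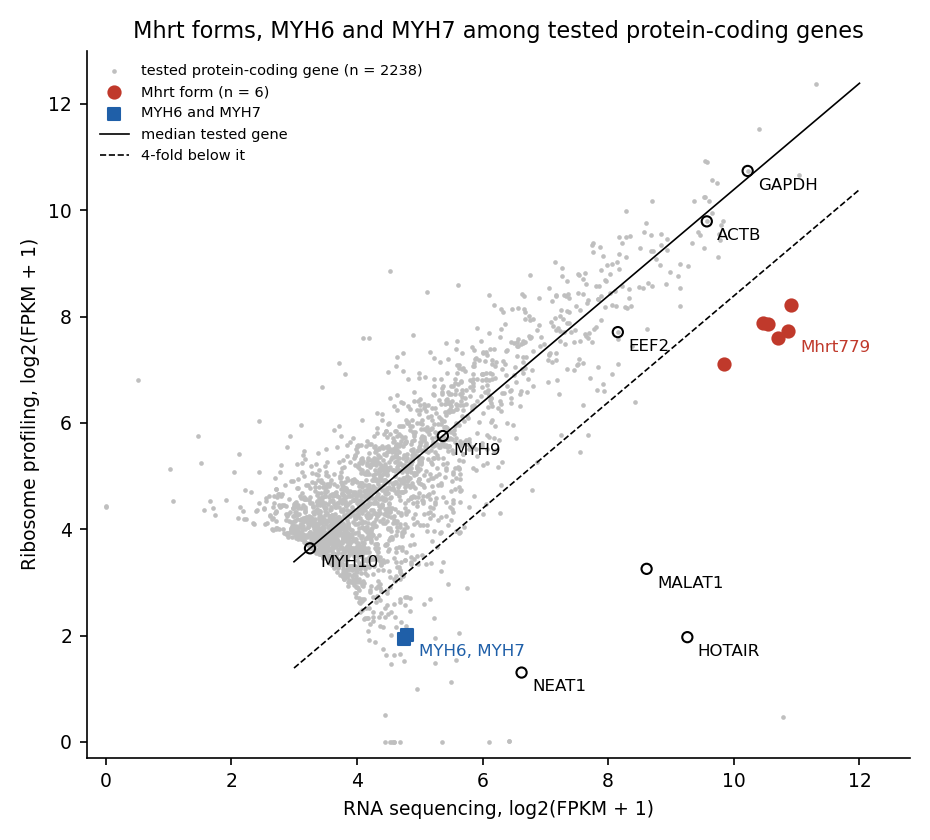
Ribosome profiling against RNA sequencing, both as log2(FPKM + 1), for the 2238 tested protein-coding genes in grey, the 6 Mhrt forms as red circles and MYH6 and MYH7 as blue squares. The solid line is the median tested gene and the dashed line is 4-fold below it; the Mhrt forms, MYH6 and MYH7 lie under the dashed line, whereas MYH9 and MYH10 lie on the solid one. The straight lower left edge of the cloud is the filter on mean FPKM.

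Few protein-coding genes were as abundant in total RNA as the Mhrt forms. Within 2-fold of Mhrt779 in total RNA there were 5 protein-coding rows. They were GAPDH, a glycolytic enzyme, and 4 near-identical copies of the GAGE12 cancer-testis antigen, whose reads may have been divided among them. GAPDH had 1192 FPKM in total RNA and 1708 FPKM in ribosome profiling, 8.12 times the ribosome profiling level of Mhrt779. GAGE12J had 2097 and 1627 FPKM, GAGE12F had 2530 and 5294 FPKM, and GAGE12C had 1351 and 2935 FPKM. GAGE12D had 1761 FPKM in total RNA and 0.38 in ribosome profiling and was the only one of the 5 with a lower ratio than Mhrt779.

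Mhrt1147, the least abundant form, had 32 protein-coding rows within 2-fold of its total RNA level. Their ribosome profiling FPKM ran from 0.38 to 2935 with a median of 743, against 136 for Mhrt1147. Of these rows 31 had a higher ratio than Mhrt1147, and GAGE12D had a lower one. Their median log2 ratio was -0.28, so Mhrt1147 lay 7.19-fold below it. With GAGE and histone (HIST) rows, which have near-identical copies, left out, 10 rows remained. Their ribosome profiling FPKM ran from 458 to 1708, and their ratios from -0.55 to 0.34, all above that of Mhrt1147.

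**Figure D3:**
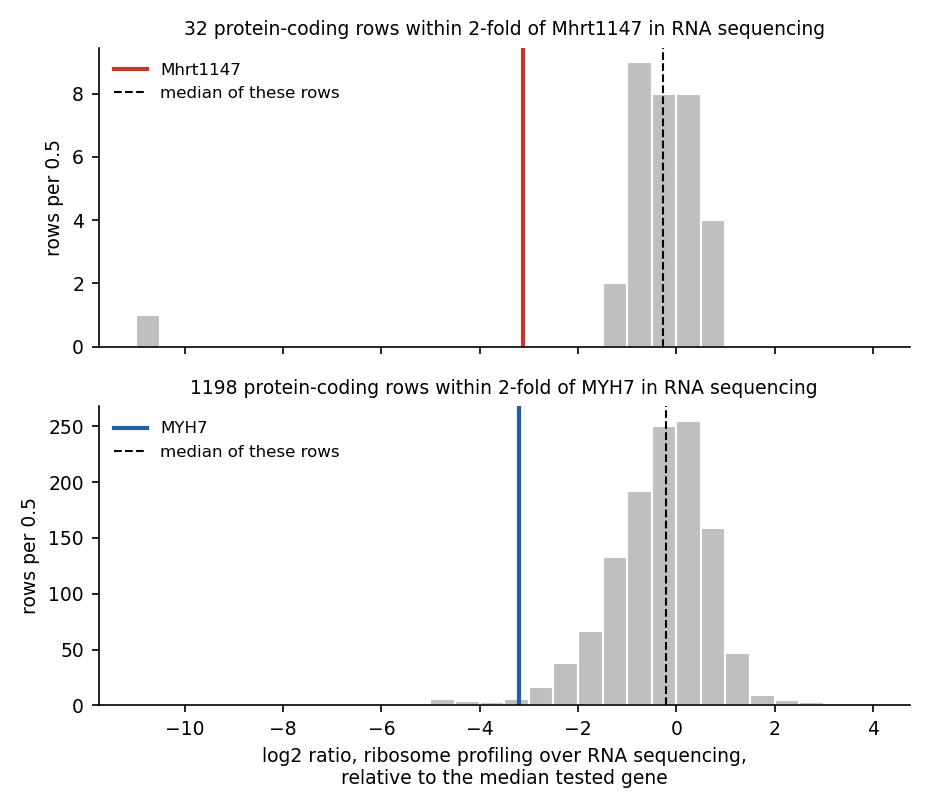
Histograms of the log2 ratio, relative to the median tested gene, for the protein-coding rows within 2-fold of Mhrt1147 (top, 32 rows) and of MYH7 (bottom, 1198 rows) in total RNA. Coloured lines mark Mhrt1147 at -3.12 and MYH7 at -3.21, and dashed lines mark the median of the rows, at -0.28 and -0.21; in the top panel 1 row, GAGE12D, lies to the left of the coloured line.

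The level of Mhrt within the ribosome profiling library was still above that of most mRNAs. Set among 18728 protein-coding rows, Mhrt779 would take rank 3 in total RNA and rank 149 in ribosome profiling. Mhrt709 would take ranks 3 and 107, and Mhrt1147 ranks 6 and 231. Among all 23600 other rows, which include small RNAs with very high FPKM, Mhrt779 would take rank 85 in total RNA and rank 358 in ribosome profiling. There were 229 tested protein-coding rows within 2-fold of Mhrt779 in ribosome profiling. These had 0.43 to 563 FPKM in total RNA, with a median of 100.4. Each was below the 1851 FPKM of Mhrt779, as nearly all protein-coding rows were, given its rank of 3 in total RNA.

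Outside the 8 rows, those whose levels in both libraries were most like those of Mhrt779 were small RNAs. SNORA63, a small nucleolar RNA that guides pseudouridylation, had 1917 FPKM in total RNA and 222 FPKM in ribosome profiling. It lay 0.092 from Mhrt779 as the distance between the log2(FPKM + 1) values. The next were SNORD94 with 872 and 209 FPKM and RNU6-28, a copy of the U6 spliceosomal RNA, with 2760 and 431 FPKM, at distances of 1.09 and 1.18. The likeness is over 2 values only.

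MYH6 and MYH7 were far less abundant than Mhrt, and were lower in ribosome profiling by a similar factor. MYH6, on chromosome 14 from 23851199 to 23877486 of hg19, had 26.8 FPKM in total RNA and 3.01 FPKM in ribosome profiling. MYH7, on the same chromosome from 23881947 to 23904870, had 25.98 and 2.82 FPKM. The 2 genes differed from each other by 1.03-fold in total RNA and 1.07-fold in ribosome profiling. Their log2 ratios were -3.18 and -3.21, inside the range of the 6 Mhrt rows at a pseudocount of 1. With a pseudocount of 5 both were -2.32, above the highest Mhrt row at -2.90, and with one of 0.1 they were -3.52 and -3.57, the latter below the lowest Mhrt row at -3.55. Because of the identical stretches shown above, the division of reads between them is uncertain. Summed, they had 52.7 and 5.84 FPKM, so that ribosome profiling held 11.1% of the total RNA level, against 14.1% for the summed Mhrt forms.

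Against protein-coding genes of like abundance, MYH6 and MYH7 stood at the low end. Of the 1198 protein-coding rows within 2-fold of MYH7 in total RNA, 20 had a lower ratio, which is 1.67%. The ribosome profiling FPKM of these 1198 rows ran from 0 to 460 with a median of 24.8, which is 8.81 times the MYH7 level. For MYH6, 21 of 1169 rows were lower, which is 1.80%. A filter on mean FPKM drops rows that were low in ribosome profiling at the bottom of these windows. With a filter of 1 FPKM the shares were 3.21% for MYH7 and 2.85% for MYH6.

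The protein-coding rows nearest to MYH6 in total RNA show what mRNAs of that level had in ribosome profiling. TRAPPC1, a subunit of a vesicle tethering complex, had 26.8 FPKM in total RNA and 39.3 in ribosome profiling. EID1 had 26.7 and 41.7 FPKM, the kinesin light chain KLC1 had 26.8 and 35.7 FPKM, the membrane protein ITM2B had 26.8 and 63.3 FPKM, and the protease-activated receptor F2RL1 had 26.7 and 30.97 FPKM. All 5 were above 30 FPKM in ribosome profiling, where MYH6 had 3.01 FPKM.

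The rows nearest to MYH7 were more mixed. EWSR1, an RNA-binding protein, had 25.9 FPKM in total RNA and 28.9 in ribosome profiling, and the peroxiredoxin PRDX6 had 26.1 and 41.2 FPKM. The secretory cargo receptor TMED2 had 25.9 and 14.4 FPKM, and FAM3C, a secreted protein, had 26.04 and 15.1 FPKM. CMTM4, a membrane protein, had 26.04 and 1.89 FPKM, so that 1 of the 5 lay below MYH7. By levels in both libraries, the rows outside the 8 that were most like MYH7 were the pseudogenes STAG3L3, with 23.4 and 2.92 FPKM, and SMG1P1, with 24.3 and 3.19 FPKM, followed by EMD, which encodes the nuclear envelope protein emerin, with 22.4 and 3.04 FPKM. Their distances from MYH7 were 0.15, 0.16 and 0.22.

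The MYH6 and MYH7 levels stood in nearly the same proportion to Mhrt779 in both libraries. MYH6 was at 1.45% of the Mhrt779 FPKM in total RNA and at 1.43% in ribosome profiling. MYH7 was at 1.40% and 1.34%. Against the sum of the 6 Mhrt rows, MYH6 was at 0.29% and 0.23% and MYH7 at 0.28% and 0.22%. Whether any reads placed on the human genes came from Mhrt was not tested.

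MYH9 and MYH10, heavy chains of the non-muscle myosins of the cytoskeleton, lay at the median gene. They were the only other members of the myosin heavy chain family to pass the filter. MYH10 passed it only through its ribosome profiling level, so it could not have been tested and low. MYH9, on chromosome 22 from 36677323 to 36784063, had 40.3 FPKM in total RNA and 52.95 in ribosome profiling. MYH10, on chromosome 17 from 8377523 to 8534079, had 8.54 and 11.5 FPKM. Their log2 ratios were -0.0039 and -0.0024. Neither transcript shared a 30-base piece with MYH6 or MYH7. The remaining 11 of the 13 other genes in the family had a mean below 2 FPKM. Among these, MYH7B, the closest in name, had 1.43 and 0.14 FPKM. The embryonic chain MYH3 had 0.57 FPKM in total RNA and stood at 0 in ribosome profiling.

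**Figure D4:**
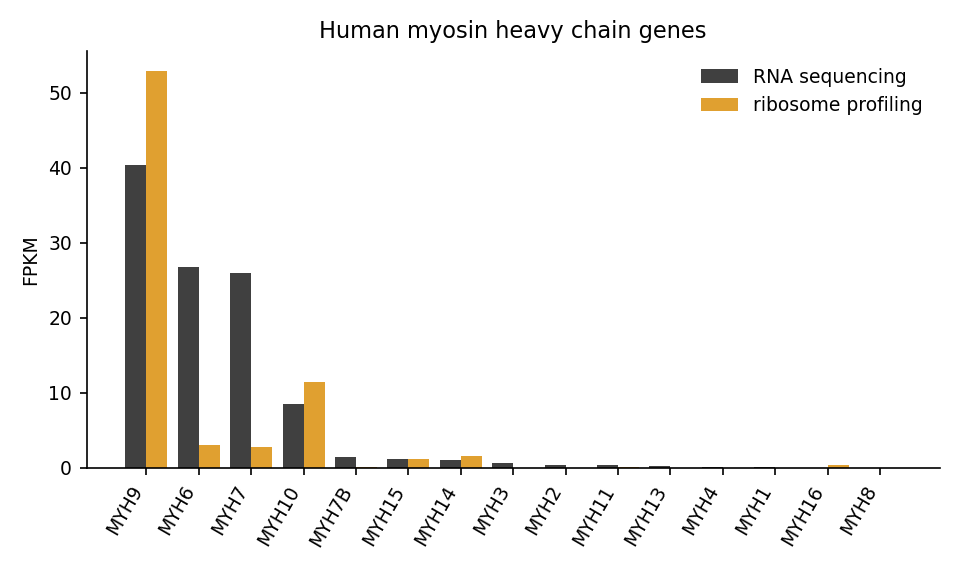
FPKM of the 15 human myosin heavy chain genes in the RNA sequencing library (dark bars) and the ribosome profiling library (light bars), ordered by total RNA level. MYH6 and MYH7 have bars of 26.8 and 25.98 FPKM in total RNA and about 3 FPKM in ribosome profiling, whereas MYH9 and MYH10 are higher in ribosome profiling.

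The myosin light chains, which bind the neck of the heavy chains, were mostly near the median gene. Of 13 genes 5 were tested, with a median log2 ratio of 0.35 against 0 for all tested genes. None exceeded the median gene by 2-fold or more and 1 was at least 2-fold below, beside 13.1% and 19.7% of all tested genes. With only 5 genes, these counts cannot be told apart from those shares. MYL6 had 142 FPKM in total RNA and 250.2 in ribosome profiling, MYL12A had 93.9 and 174 FPKM, MYL12B had 146 and 218 FPKM, and MYL9 had 12.6 and 21.7 FPKM. MYL6B had 33.3 and 9.17 FPKM and was 4.42-fold below. The ventricular light chains MYL2 and MYL3 and the atrial MYL7 were listed at 0 in both libraries. MYL4, also an atrial chain, had 4.53 FPKM in total RNA and was listed at 0 with ribosomes.

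Most other genes of heart muscle were near 0. Of the other 15 cardiac sarcomere genes, 12 had a mean below 2 FPKM and 8 were listed at 0 in both libraries. Over the whole table, 9089 of 23608 rows were listed at 0 in both, so a listed 0 is not particular to heart muscle genes. The cardiac actin ACTC1, whose sequence is close to that of other actins, had 5.24 FPKM in total RNA and 9.91 in ribosome profiling. The list had 1 tested gene besides MYH6 and MYH7, the tropomyosin TPM1, which non-muscle cells also express, with 22.7 FPKM in total RNA and 28.0 in ribosome profiling. Of 10 heart muscle markers 6 were listed at 0 in both libraries, including the troponin TNNT2 and the natriuretic peptides NPPA and NPPB. The 10 markers summed to 3.70 FPKM in total RNA and 3.51 in ribosome profiling, so all of them together were below MYH6 or MYH7 alone in total RNA. The skeletal muscle regulator MYOD1 was listed at 0 in both. ACTA1, a skeletal actin whose sequence is close to that of other actins, had 62.3 and 46.3 FPKM.

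The labelled cell type was checked in the same way. All 10 markers of the steroid-producing adrenal cortex, including NR5A1, STAR and CYP11A1, were listed at 0 in both libraries. The same held for 9089 of the 23608 rows of the whole table. A listed 0 in ribosome profiling need not mean absence: the ribosomal protein gene RPL13A had 22.6 FPKM in total RNA and 0 in ribosome profiling. Whether the genes listed at 0 in both libraries were absent was not tested. Of 5 epithelial and mesenchymal markers, EPCAM and CDH1 were listed at 0 in both libraries. The intermediate filament gene VIM had 490 and 707 FPKM, KRT18 had 57.2 and 139 FPKM, and KRT8 had 41.9 and 69.7 FPKM in total RNA and ribosome profiling.

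None of the neighbours of MYH6 and MYH7 on chromosome 14 passed the filter. Within 200000 bases on either side the table lists 17 other rows, of which 7 were listed at 0 in both libraries. Over the whole table, 9089 of 23608 rows were listed at 0 in both, and only 2734 passed the filter. These counts therefore do not set the neighbours apart from other rows. The highest of the 17 were BCL2L2-PABPN1, a readthrough transcript, with 11.8 FPKM in total RNA and 2.85 in ribosome profiling, and NGDN, on the far side of MYH7, with 4.13 and 14.7 FPKM. MIR208A and MIR208B, the cardiac microRNAs carried within introns of MYH6 and MYH7, were listed at 0 in both.

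Genes known for their link to Mhrt and Brg1 in the heart were above the median gene or scarce. SMARCA4, which encodes Brg1, had 3.99 FPKM in total RNA and 0.68 in ribosome profiling, and its relative SMARCA2 had 1.72 and 1.75 FPKM, both under the filter. The histone deacetylase HDAC1 had 22.0 and 44.4 FPKM and HDAC2 had 9.49 and 23.1 FPKM. PARP1, a poly(ADP-ribose) polymerase, had 6.16 and 14.2 FPKM. SPP1, which encodes osteopontin, had 27.7 FPKM in total RNA, close to MYH6, and 75.8 in ribosome profiling. Of the 4 tested genes of this list 1, SPP1, exceeded the median gene by 2-fold or more and none was 2-fold below, beside 13.1% and 19.7% of all tested genes. HDAC2 and PARP1 passed the filter only through their ribosome profiling level, so neither could have been counted as 2-fold below. SMARCA4, with a log2 ratio of -1.96, was kept out of the count by the same filter.

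Of a chosen list of 12 human long non-coding RNAs, 8 were tested, and 4 of these lay lower than every Mhrt form. Of the 2236 tested protein-coding genes outside the 8 rows, 0.85% did. In all, 6 of the 8 lay 2-fold or more below the median gene and 5 lay 4-fold or more below, with a median log2 ratio of -3.82. Over all tested genes the shares were 19.7% and 9.80%. HOTAIR, MALAT1, NEAT1 and LINC00657 passed the filter through total RNA alone. HOTAIR, the human row of the other transfected RNA, had 612 FPKM in total RNA and 2.92 in ribosome profiling. The nuclear RNAs MALAT1 and NEAT1 had 390.3 and 8.54 FPKM and 97.5 and 1.47 FPKM. LINC00657, with 35.8 and 0.34 FPKM, was the fourth of them. GAS5, a host of small nucleolar RNAs, had 54.1 and 12.1 FPKM and the telomerase RNA TERC had 84.4 and 45.1 FPKM, and neither was as low as Mhrt. LINC00152, with 29.4 and 35.2 FPKM, and SNHG8, with 42.8 and 54.1 FPKM, were near the median gene.

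The authors' deposited table gives a log2 ratio without centring and a test between the single libraries, whose model error holds no spread between cultures. In the authors' deposited table the log2 ratios were -3.15 for MYH6 and -3.20 for MYH7, with standard errors of 0.98 and 0.99, and their q-values were 0.077 and 0.072. The Mhrt rows ran from -3.14 for Mhrt779 to -2.59 for Mhrt828(AK052874) in the authors' deposited table, with standard errors of 1.14 to 1.15. None of the 8 rows was called in the authors' deposited table, where 1.30% of the 4849 rows with the status OK were called. At an unadjusted p below 0.05 in the authors' deposited table, all 8 rows were lower in ribosome profiling, as were 10.0% of the rows with the status OK.

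Within the 8 rows the deposited errors separate nothing. Of 28 pairs in the authors' deposited table, the largest difference in log2 ratio was 0.61, with combined standard errors of 1.39 to 1.62, and no 95% interval excluded 0. The errors of MYH6 and MYH7, which share sequence, need not be independent, nor those of the Mhrt forms, and these intervals do not show that the rows are alike. A further 27 differences were formed from the authors' deposited table, of Mhrt779, MYH6 and MYH7 against 9 other rows, without adjustment for their number. They compare these 2 libraries, not the assays over cultures. Against MYH9 and MYH10 all 3 rows were lower with an interval that excluded 0: MYH7 minus MYH9 was -3.60, with an interval from -6.52 to -0.67 in the authors' deposited table. MYH10 had passed the filter only through its ribosome profiling level. Against abundant mRNAs the intervals were divided. Mhrt779 minus GAPDH was -3.66 in the authors' deposited table, with an upper bound of -0.0071, whereas Mhrt779 minus ACTB was -3.36, from -6.77 to 0.050. MYH6 and MYH7 excluded 0 against both ACTB and GAPDH in the authors' deposited table. Against EEF1A1 and EEF2 none of the 3 rows did, with Mhrt779 minus EEF2 at -2.69, from -6.00 to 0.62. Against the human HOTAIR row all 3 were higher with an interval that excluded 0, and Mhrt779 minus MALAT1 was 2.38 in the authors' deposited table, from -0.82 to 5.57. No interval against MALAT1 or NEAT1 excluded 0.

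**Figure D5:**
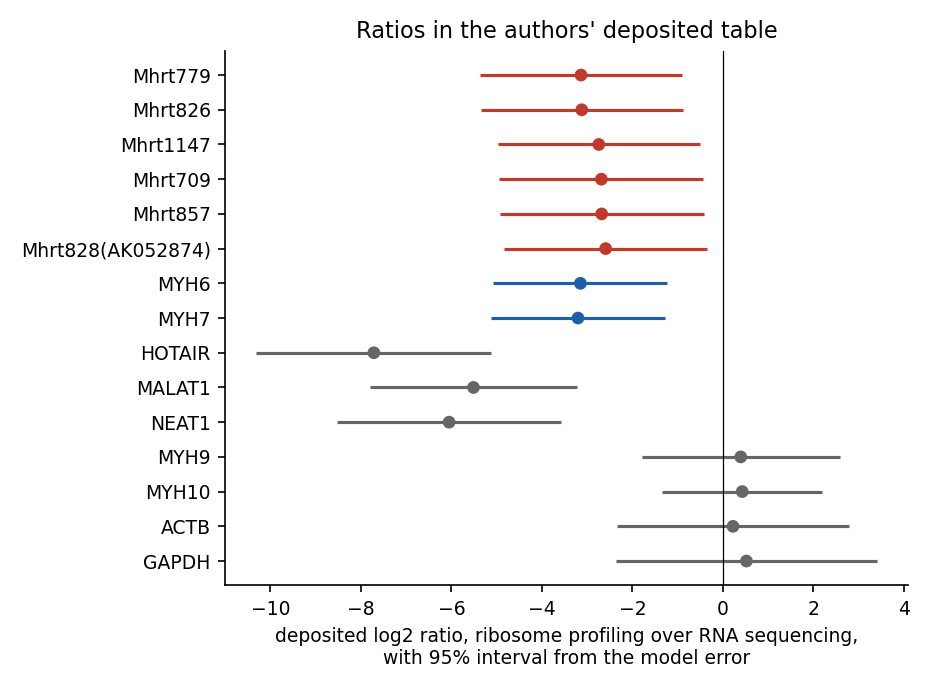
Log2 ratio of the ribosome profiling to the total RNA level in the authors' deposited table, with 95% intervals from its model error, for the 6 Mhrt rows (red), MYH6 and MYH7 (blue) and 7 other genes (grey). The intervals of the 8 rows overlap one another and lie below 0, and those of MYH9, MYH10, ACTB and GAPDH include 0.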

How the data were processed

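One RNA sequencing and 1 ribosome profiling library of SW13 cells were compared, each group from the sample labels. The authors deposited 1 FPKM value per gene and library, with a log2 fold change and a test statistic (each a score column holding extreme placeholder values where 1 library is at 0), p-values and q-values. Per the submitters' processing notes, bedtools 2.16.1, SAMtools 0.1.18, Bowtie2 2.0.0.6 and TopHat2 2.0.8b were used, with mm10 and hg19, each named without a role. The program behind the table, its scaling between libraries and its handling of reads matching several places were not given in the sources used here. The FPKM hold no depth, so no counting interval is given.

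The ratio was log2 of ribosome profiling over RNA sequencing FPKM, each plus a pseudocount of 1, minus the median over 2734 genes with a mean FPKM of at least 10 and no FAIL or HIDATA status. No p-value was computed, each group being 1 library. The step was tested on simulated data. Protein-coding rows were identified from RefSeq by symbol or synonym (22523 of 23608 rows matched a class). Rows within 2-fold in RNA sequencing were set beside each member. Those within 2-fold in ribosome profiling were added after the values were seen. Named genes were the 8 rows, the 5 protein-coding rows nearest in RNA sequencing to Mhrt779, MYH6 and MYH7, the 3 rows nearest in both libraries to Mhrt779 and MYH7, rows of like level below Mhrt779, list members that passed this filter, and ACTB, GAPDH, EEF1A1 and EEF2. ACTB, EEF1A1 and EEF2 had 759 and 885, 566 and 506, and 284 and 208 FPKM. Other list members and neighbours named were chosen after their values were seen. The members and lists were chosen with earlier results of these data known. A standard error of a deposited ratio is the ratio over its statistic, since the p of a two-sided normal test of that statistic came within 0.001 of the deposited p-value in 100% of rows with the status OK. Shared sequence was counted on the longest coding GENCODE release 29 transcript per gene (GRCh38). Python 3.11.15 with pandas 2.3.3, numpy 2.4.6, scipy 1.17.1 and biopython 1.88 was used. Alternatives changed the pseudocount, filter, centring, scaling, status and window.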

Additional observations from a re-analysis of the deposited data

How the results depend on the processing

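All 72 recomputed ratios, of 8 rows under 9 settings, stayed at least 2-fold below their reference, between -3.70 and -2.30. The reference was the median gene, except without centring, where it was equal FPKM in both libraries. The same holds for the counts and shares below. MYH6 and MYH7 moved with the pseudocount, at -2.32 each with 5 FPKM and -3.52 and -3.57 with 0.1 FPKM. Neither the count of 8 rows at least 2-fold below nor that of 8 at least 4-fold below changed. The ratios and counts keep MYH6 and MYH7 under the filter of 30 FPKM, which their means of 14.9 and 14.4 FPKM do not pass. The shares of protein-coding rows of like level did move. With the filter lowered to 1 FPKM or left out, 2.85% of rows like MYH6 and 3.21% of rows like MYH7 had a lower ratio, and with a filter of 30 FPKM 0% of each, since that filter removes rows low in ribosome profiling. The share of rows like MYH6 at least 2-fold below the median gene was 23.4%, against 15.5% with a filter of 1 FPKM, 13.995% with none, 7.33% with 30 FPKM, 14.03% without centring and 15.2% within 4-fold. For MYH7 it was 23.0%, against 14.5% with no filter, 7.40% with 30 FPKM, 13.6% without centring and 15.2% within 4-fold. For Mhrt1147 it was 9.38%, against 3.125% with a filter of 1 FPKM, with none and without centring, 4.55% within 1.5-fold and 0% without GAGE and HIST rows. Within 1.5-fold, 0% of rows like Mhrt1147 and 25% of rows like each of the other 5 forms had a lower ratio than the form, and within 4-fold these shares ran from 1.14% for Mhrt1147 to 3.03% for Mhrt779 and Mhrt709. With GAGE and HIST rows left out, an alternative added after seeing the data, 0% of rows lay below Mhrt779, Mhrt826, Mhrt1147, Mhrt709, Mhrt857 or Mhrt828(AK052874). Few rows were left to compare: only 1, GAPDH, for each of Mhrt779, Mhrt826 and Mhrt709. There were 3 for Mhrt857, 5 for Mhrt828(AK052874) and 10 for Mhrt1147. The percent of MYH6 and MYH7 relative to the sum of the 6 Mhrt rows in place of Mhrt779 was 0.29% and 0.28% in RNA sequencing and 0.23% and 0.22% in ribosome profiling. No paired analysis was possible because each group has 1 library, and for the same reason no replicate could be left out.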
